A study of Mus musculus with 4 samples.

Results

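Ttr, Folr1, Clic6, Kcne2, Kl, Enpp2 and Ecrg4 were followed through 4 mouse brain sections, inside and outside the choroid plexus. They are 7 of the 32285 genes in the count matrix, chosen by symbol from earlier results of these data, so their high level in the choroid plexus is a description and carries no test. Choroid spots were those with at least 10 UMIs (unique molecular identifiers, each counting 1 captured transcript) of Folr1, Clic6 and Kcne2 summed, called gate UMIs below because these 3 gate genes set the choroid spots. The rule found 77 such spots among the 10942 spots kept: 26 and 12 in the vehicle and ethanol sections of young mice, and 29 and 10 in those of aged mice. The rule sets Kl apart as a gene that neurons also express.

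The sections came from female C57BL/6 mice, wild type per the labels and 3 to 4 months (young) or 18 to 20 months old (aged). Every mouse was gavaged on alternate days, 10 times within 18 days, with water (vehicle) or with ethanol at 3 g/kg, and was killed 18 hours after the last dose. Each pairing of age and gavage was 1 library from 1 section, so no p-value is given, and the 95% intervals below cover counting error only, not differences between animals or sections. The left hemisphere was cut coronally at 10 µm, at bregma -2 to -2.2, after the meninges had been taken off. The tissue label reads hippocampal, but the sections also held spots with the markers of thalamus, hypothalamus, neocortex, striatum and white matter. Transcripts were counted on a 10x Visium slide, where a spot covers a small area that can hold several cells of different types. In such spots, fewer cells of a type and less RNA per cell cannot be told apart.

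The choroid plexus is a sheet of cuboidal epithelium around a vascular core that hangs into the brain's ventricles and secretes cerebrospinal fluid. Its cells carry transporters and ion channels, and they release binding proteins into that fluid. Ttr encodes transthyretin, which carries thyroxine and, with its partner, retinol. Folr1 encodes the folate receptor that moves folate across the epithelium. Clic6 belongs to the chloride intracellular channel family, and Kcne2 encodes an accessory subunit of potassium channels. Kl encodes klotho, the co-receptor for the hormone FGF23. Enpp2 encodes autotaxin, a secreted enzyme that makes lysophosphatidic acid, and Ecrg4 encodes a secreted precursor also called augurin.

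The genes lie on separate chromosomes, apart from Kcne2 and Clic6. In the RefSeq annotation of GRCm38.p6 (the assembly that mm10 is built on), Kcne2 spans chr16:92292389-92298133 and Clic6 spans chr16:92498147-92541241. Ecrg4 spans chr1:43730602-43742564, Kl spans chr5:150952607-150993817, Folr1 spans chr7:101858331-101870788 and Enpp2 spans chr15:54838901-54952789. The 250 bases before the annotated start are shown, on the plus strand, for Kl, Kcne2 and Ecrg4, the 3 of the 7 genes matched in the RefSeq promoter table. Capitals mark GGGCGG, the GC box, on either strand.

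The windows lie at chr5:150952357-150952606 for Kl, chr16:92292139-92292388 for the first of the annotated starts of Kcne2, and chr1:43730352-43730601 for Ecrg4.
Kl: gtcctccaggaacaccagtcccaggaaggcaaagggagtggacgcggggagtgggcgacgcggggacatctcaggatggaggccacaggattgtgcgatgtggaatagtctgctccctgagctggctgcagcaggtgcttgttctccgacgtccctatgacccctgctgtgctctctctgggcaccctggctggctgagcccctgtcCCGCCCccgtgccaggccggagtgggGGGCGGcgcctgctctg
Kcne2: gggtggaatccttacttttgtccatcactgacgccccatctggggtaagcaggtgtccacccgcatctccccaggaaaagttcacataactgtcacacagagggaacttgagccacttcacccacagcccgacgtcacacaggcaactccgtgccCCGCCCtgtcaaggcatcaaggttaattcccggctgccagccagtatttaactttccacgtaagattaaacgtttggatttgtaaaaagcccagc
Ecrg4: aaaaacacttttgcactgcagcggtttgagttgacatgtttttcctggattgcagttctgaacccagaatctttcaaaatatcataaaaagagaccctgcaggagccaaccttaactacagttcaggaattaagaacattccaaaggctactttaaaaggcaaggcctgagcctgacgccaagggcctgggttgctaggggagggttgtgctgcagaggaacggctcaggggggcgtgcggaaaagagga

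The windows differed in base composition. The Kl window was 66.8% G and C with 13 CpG dinucleotides, the Kcne2 window 52.4% with 9, and the Ecrg4 window 48.4% with 5, beside a median of 52.4% and 6 over 32851 promoter windows of 250 bases. Kl held 2 GC boxes, 43 bases before the start on the reverse strand and 17 bases before it on the forward strand. Kcne2 held 1, on the reverse strand, 95 bases before the start, and Ecrg4 held none, while 32.7% of all windows held at least 1. The letters TAATCC, which Otx proteins bind, and GTAAACA, a forkhead motif, were looked for on both strands. Neither stood in any of these windows, and they stood in 6.25% and 3.17% of all windows. CCAAT, which with GGGCGG was added after the sequences had been seen, was also not found in these 3 windows and stood in 33.8% of all. The searched motifs do not overlap one another.

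The choroid spots were checked against marker genes outside the 7. Summed UMIs of Kcnj13, Aqp1, Otx2, Tmem72 and Sostdc1 stood at 1224 and 887 CPM in the young vehicle and ethanol sections and at 1302 and 1204 CPM in the aged ones. CPM is the number of UMIs per 1000000 UMIs of the same spots. In all other spots they stood at 10.5, 5.06, 13.5 and 6.18 CPM. All 5 genes were counted in the choroid spots of each library. The spots also held other cells: 10 ependymal markers summed to 1452, 2027, 1318 and 1340 CPM, and 10 oligodendrocyte markers to 9899, 13110, 4391 and 9636 CPM. The ependymal list was higher than in other spots by log2 3.96 to 5.36, whereas the oligodendrocyte list lay between log2 -0.55 and 0.95. A list of 9 meningeal and fibroblast markers, which includes Igf2, was higher by log2 2.94 to 4.19. Most of that sum was Igf2, with 718, 195, 573 and 307 of the list's 954, 263, 714 and 413 UMIs in choroid spots. Slc22a6 of that list had a UMI there in young vehicle only. An endothelial list was higher by log2 0.92 to 1.37 and a striatum list by log2 0.92 to 1.86. Which cells of the choroid spots held the UMIs of the striatum list was not tested. The 5 general neuronal markers were lower in choroid spots, by log2 -3.95 to -2.65.

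Depth was higher in choroid spots, with a median of 31290 to 39325 UMIs per spot against 15458 to 19031 in other spots. Total UMIs were 52807139, 58305713, 45995677 and 48131900 in the library order used throughout, which is vehicle then ethanol of the young, followed by vehicle then ethanol of the aged mice. The choroid spots made up 0.957% (exact Clopper-Pearson 95% interval 0.626 to 1.40), 0.417% (0.215 to 0.726), 1.07% (0.720 to 1.54) and 0.379% (0.182 to 0.695) of the spots. The 2 ethanol sections thus had fewer choroid spots than the 2 vehicle sections. Spots assigned to thalamus markers numbered 175, 432, 184 and 446, so the tissue within the sections differed along the same line, and gavage and plane of section cannot be told apart in what follows. No barcode of a choroid spot was a choroid spot in another library, although 1205 barcodes occurred in all 4.

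Ttr made up a large part of all transcripts in these spots. It gave 196400, 59613, 194657 and 69257 UMIs in choroid spots, which was 208201, 152759, 220743 and 187876 CPM, or 20.8%, 15.3%, 22.1% and 18.8% of all UMIs there. In other spots it stood at 943, 205, 1412 and 252 CPM. Levels outside were higher in both vehicle sections than in both ethanol sections, a 6.87-fold range, while levels inside spanned a 1.45-fold range.

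Folr1, the folate receptor, was counted at 435, 356, 499 and 475 CPM in choroid spots and at 5.5, 1.29, 8.45 and 1.53 CPM elsewhere. Kcne2 was counted at 354, 192, 412 and 442 CPM in choroid spots and at 1.21, 0.311, 1.80 and 0.419 CPM elsewhere, where the sections held 63, 18, 81 and 20 UMIs in all. Both were lower outside the choroid spots in the ethanol sections than in the vehicle sections, in the same order of libraries as Ttr. Clic6 was counted at 892, 630, 854 and 849 CPM inside and at 6.44, 5.99, 9.44 and 6.55 CPM outside. The outside level of Clic6 varied only 1.58-fold over the libraries, against 6.52-fold for Folr1 and 5.78-fold for Kcne2. These 3 genes defined the choroid spots, so a high level inside follows from the rule.

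Kl was counted at 951, 661, 979 and 985 CPM in choroid spots and at 8.08, 5.25, 10.4 and 6.05 CPM elsewhere. Ecrg4 was counted at 1427, 1033, 1704 and 1245 CPM inside and at 8.54, 3.64, 11.5 and 4.5 CPM outside. Enpp2 was counted at 13022, 8741, 13168 and 12451 CPM inside and at 214, 174, 226 and 187 CPM outside. In each of these genes the young ethanol section had the lowest level inside. The outside level varied 1.98-fold for Kl, 3.16-fold for Ecrg4 and 1.3-fold for Enpp2.

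**Figure D1:**
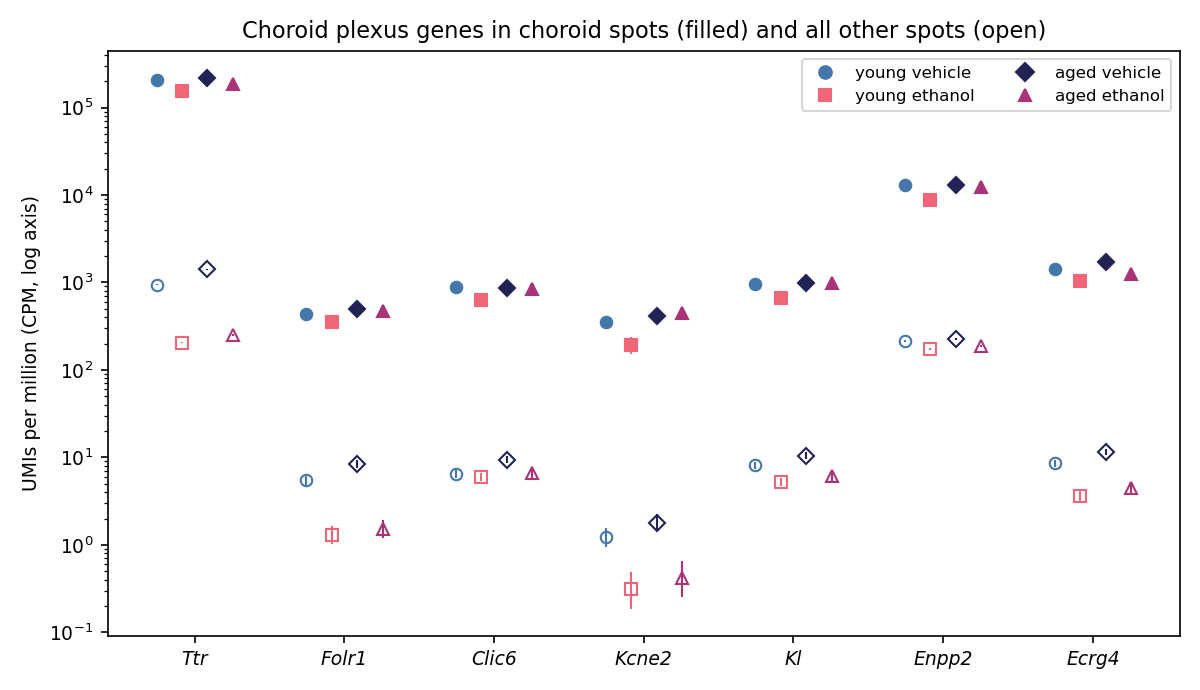
CPM (log axis) of each gene in choroid spots (filled symbols) and in all other spots (open symbols), 1 symbol per library, with exact Poisson 95% intervals. For each gene but Clic6, the open symbols of both vehicle sections lie above those of both ethanol sections, with a range over libraries of 1.3-fold for Enpp2 to 6.87-fold for Ttr. Those of Clic6 lie within 1.58-fold and do not separate by gavage label.

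A gene was taken as higher in choroid spots when its CPM was at least 2-fold that of other spots in all 4 libraries, provided both sets together gave 20 UMIs or more in every one. All 7 genes met this, as did 7.94% of the 15053 genes tested, and nothing is read from that count because the rule chose them for it. The ratio of choroid over other spots was 156-fold to 747-fold for Ttr over the 4 libraries, 229-fold to 1056-fold for Kcne2 and 59.1-fold to 311-fold for Folr1. It was 148-fold to 283-fold for Ecrg4, 93.9-fold to 163-fold for Kl, 90.4-fold to 138-fold for Clic6 and 50.2-fold to 66.7-fold for Enpp2. The median over the 7 genes was log2 7.20, and over all genes tested it was 0.02. Each gate gene kept a high ratio in spots chosen on the other gate genes alone (at least 7 UMIs of the pair). The log2 ratio was then 5.88 to 8.28 for Folr1, 6.47 to 7.02 for Clic6 and 7.76 to 10.05 for Kcne2.

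Ranked by the library with the lowest ratio, Kcne2, Ttr and Ecrg4 stood at places 2, 4 and 6 of the tested genes, and Kl, Clic6, Folr1 and Enpp2 at places 20, 22, 34 and 41. The 10 leading genes outside the 7 were F5, Cldn2, Calml4, Frmpd1os, Tmem72, Slc16a8, Prr32, Aqp1, Wdr86 and Wfdc2. F5 encodes coagulation factor V, and its lowest log2 ratio was 7.89. Cldn2 encodes a claudin of leaky tight junctions, with 187, 110, 219 and 195 CPM inside and 1.16, 0.311, 1.26 and 0.314 CPM outside. Aqp1 encodes a water channel, with 169, 133, 175 and 111 CPM inside and 0.906, 0.380, 1.40 and 0.482 CPM outside.

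Of a list of 40 other choroid plexus genes, 38 met the rule, none was at least 2-fold lower throughout, 1 did neither and 1 had too few UMIs. Of all genes tested, 7.94% met it. The list was chosen with earlier results of these data known, so its count is a description. The list's median was log2 6.00. Kcnj13, an inwardly rectifying potassium channel, had a median of log2 7.68, Otx2, a homeodomain transcription factor, of 6.71, and Sostdc1, a secreted antagonist of BMP and Wnt signals, of 6.54. Prlr, the prolactin receptor, had a median of 6.40 and Igf2, a growth factor that meningeal cells also make, of 4.68. Atp1b1, a sodium pump subunit also found in neurons, was the gene that did neither, at -0.72. Slco1a5, an organic anion transporter, was not tested.

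Genes near Kcne2 and Clic6 on chromosome 16 did not share their ratio. Of 8 such genes 6 had enough UMIs, and 1, Mrps6, met the rule, beside 7.94% of all genes tested. Mrps6 encodes a protein of the mitochondrial ribosome, and its log2 ratio was 1.85 to 2.17. Smim11 had a median of 1.14, Slc5a3, a myo-inositol transporter, of 0.90 and Rcan1, a regulator of calcineurin, of -0.67. Counts under 3 UMIs were raised to 3 in these ratios. Setd4 had 2, 1, 2 and 0 UMIs in choroid spots, so its median of -0.15 rested on that value. Its CPM as counted was 2.12, 2.56, 2.27 and 0 inside and 4.97, 6.08, 6.14 and 5.32 outside. Runx1 had no UMI in the choroid spots of 3 libraries and 1 UMI in those of aged vehicle, so all its ratios rested on the raised value. Kcne1 and Fam243 were not tested.

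The share of a transcript that lay within the choroid spots differed between genes. For Ttr, 80.1%, 83.4%, 75.4% and 85.2% of the section's UMIs were in choroid spots, and for Kcne2 84.1%, 80.6%, 81.8% and 89.1%. Both shares held within 1.13-fold and 1.10-fold over sections whose choroid spots ranged from 10 to 29. The share was 59.0%, 65.0%, 53.6% and 70.6% for Folr1 and 75.2%, 65.6%, 74.3% and 68.1% for Ecrg4. For Clic6 it was 71.6%, 41.5%, 63.9% and 50%, for Kl 68.2%, 45.9%, 64.7% and 55.7%, and for Enpp2 52.6%, 25.3%, 53.2% and 34.0%. For Ecrg4, Clic6, Kl and Enpp2 both ethanol sections, which had fewer choroid spots, had lower shares than both vehicle sections, and the opposite held for Ttr and Folr1. Kcne2 followed neither order.

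The level of Ttr climbed with the number of gate UMIs in a spot, on both sides of the threshold. In spots with no gate UMI it was 405, 115, 376 and 131 CPM, and with 1 gate UMI 1795, 333, 1409 and 559 CPM. Spots with 5 to 9 gate UMIs stood at 29000, 11560, 20888 and 22037 CPM, and spots with 50 or more at 253510, 200050, 283724 and 214388 CPM. The 14 spots just outside the threshold, with 8 or 9 gate UMIs, had 349 to 1301 UMIs of Ttr with a median of 605.5. The 8 spots just inside, with 10 or 11, had 437 to 2060 with a median of 964. Spots with 1 to 9 gate UMIs numbered 434, 310, 478 and 294, far more than the choroid spots themselves.

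Kl, Enpp2 and Ecrg4, which took no part in the gate, followed the same slope but ended on different floors. Kl went from 1213, 906, 1243 and 1124 CPM in spots with 50 or more gate UMIs to 5.88, 4.79, 6.79 and 5.14 CPM in spots with none. Ecrg4 went from 1737, 1285, 2130 and 1383 CPM to 4.91, 2.73, 4.72 and 2.88 CPM. Enpp2 went from 15961, 11343, 16912 and 14349 CPM to 185, 169, 184 and 176 CPM. At that end all 3 genes were higher in both vehicle sections than in both ethanol sections, by the smallest margin for Enpp2. Spots with no gate UMI held 5.05% to 8.32% of the section's Ttr but 17.7% to 44.0% of its Kl, 29.2% to 64.7% of its Enpp2 and 8.11% to 23.0% of its Ecrg4.

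Ttr was also widely spread at low level. A UMI of Ttr was found in 83.5%, 40.2%, 70.9% and 48.2% of other spots. With each spot thinned to 5000 UMIs, and 132, 87, 231 and 95 shallower spots left out, the shares were 59.3% (57.4 to 61.2), 20.8% (19.4 to 22.4), 53.3% (51.3 to 55.3) and 26.7% (25.0 to 28.5). At equal depth the vehicle sections thus still had the higher shares. Free RNA in the tissue can give such counts in spots whose cells do not express the gene. In thinned CA1-list spots, which lie in neuronal tissue, the shares were 45.0%, 10.5%, 46.8% and 16.7%. Median depths of CA1-list spots were 23925, 22448, 20371 and 21613 UMIs, and of other spots 18745, 19031, 15458 and 16134. The part of free RNA in these shares was not tested, and a share of spots with a UMI is not read as expression of Ttr.

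The low counts were uneven. The 1% of other spots with the most Ttr held 26.5%, 45.7%, 31.6% and 40.7% of its UMIs outside the choroid spots, with up to 1038, 519, 1301 and 528 UMIs in 1 spot. The same 1% share was 6.99% to 10.4% for Enpp2, whose UMIs outside were spread more evenly. Other spots without any Ttr UMI made up 16.5%, 59.8%, 29.1% and 51.8%, and those without any Enpp2 UMI 11.6%, 13.2%, 19.2% and 14.6%.

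Ratios between the transcripts show where a gene left the choroid pattern. In choroid spots Kl gave 4.33 to 5.24 UMIs per 1000 UMIs of Ttr over the 4 libraries, Clic6 3.87 to 4.52, Folr1 2.09 to 2.53, Ecrg4 6.63 to 7.72 and Enpp2 57.2 to 66.3. These ranges were 1.16-fold to 1.21-fold, and that of Kcne2, at 1.26 to 2.35, was 1.87-fold. In other spots the ratio to Ttr was 7.38 to 25.5 for Kl, 6.69 to 29.2 for Clic6, 160 to 848 for Enpp2, 8.15 to 17.9 for Ecrg4 and 5.82 to 6.30 for Folr1. For Kcne2 it was 1.27 to 1.66, within its range in choroid spots. Kcne2 was thus the 1 gene of the 6 whose ratio to Ttr outside lay within its range inside, taken over all libraries. Library by library it did not keep its ratio. Kcne2 gave 1.70, 1.26, 1.86 and 2.35 inside and 1.29, 1.51, 1.27 and 1.66 outside, lower outside in all but young ethanol. In aged vehicle the intervals, 1.68 to 2.07 inside and 1.01 to 1.58 outside, did not overlap. Gate genes outside are held down by the threshold itself, which bears on the outside ratios of Folr1, Clic6 and Kcne2.

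Within choroid spots the genes varied together with the other choroid list. Spearman's rho between a gene's share of a spot's UMIs and that of the list was 0.84 to 0.99 for Ttr over the 4 libraries, 0.85 to 0.97 for Enpp2, 0.86 to 0.89 for Kl and 0.75 to 0.88 for Ecrg4. It was 0.73 to 0.90 for Clic6, 0.62 to 0.89 for Folr1 and 0.51 to 0.87 for Kcne2, the gene with the fewest UMIs. These are descriptions over 26, 12, 29 and 10 spots that share a section, a library and each spot's total, and carry no test.

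Of the 10865 spots outside the choroid spots, 3906 stayed unassigned and the rest were assigned to 14 regions by marker lists that hold none of the 7 genes. A region is named after its list (CA1-list spots), and it is a set of spots, not an outline. The lists of CA3 and of deep neocortex had no marker of their own among the 10 leading genes of their spots, so their values rest on weaker assignment. Each of the 7 genes had its highest regional median in the 116 ependymal-list spots. Those spots also held much white matter signal, with a median over spots of 27646.5 CPM of oligodendrocyte markers. Only oligodendrocyte-list spots had more, at 44257 CPM. The part of this mixture in the values of ependymal-list spots was not tested.

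Kl in CA1-list spots was close to even over the libraries. There it gave 52, 53, 48 and 59 UMIs in 104, 95, 112 and 110 spots, or 19.5, 23.5, 20.0 and 22.1 CPM. In dentate-list spots it stood at 13.6, 11.3, 9.06 and 11 CPM, in CA3-list spots at 12.3, 14.5, 9.51 and 15.0 CPM, and in thalamus-list spots at 1.93, 0.609, 2.63 and 1.93 CPM. CA1-list spots were above each of these in all 4 libraries. CA1-list levels in the libraries lay within a 1.21-fold range, while Ttr in the same spots ranged from 68.4 to 212 CPM. Spots were first to be assigned by the highest score alone, and a margin over the next list was required after the numbers of spots per region had been seen. Without that margin the median of Kl in CA1-list spots was 13.4 CPM in place of 21.1 CPM and its rank 3 of the 14 regions in place of 2. The rank was also 3 without the young ethanol library and without the aged ethanol library.

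Ordered by their median over libraries, the regions for Kl ran from ependymal (44.5 CPM, range 21.3 to 86.4) through CA1 (21.1, range 19.5 to 23.5) and meninges and fibroblasts (19.2, range 11.4 to 22.4) to striatum (13.4, range 5.84 to 64.0) and CA3 (13.4, range 9.51 to 15.0). Dentate (11.2), reticular thalamus (9.33), hypothalamus (6.98), white matter (5.17), piriform and amygdala (4.73), upper neocortex (4.18), deep neocortex (2.89), habenula (2.85) and thalamus (1.93) followed. The range over libraries of each region overlapped that of its neighbour in this order. Had the Kl of CA1-list spots come with Ttr at the ratio of the choroid spots, it would have stood at 0.296 to 0.938 CPM. The measured level was above that in 4 of 4 libraries. This did not set CA1 apart, as Kl was above the choroid ratio in 4 of 4 libraries in other spots too. Those were the meninges-list, CA3-list, dentate-list, upper neocortex-list, hypothalamus-list and unassigned spots. In CA1-list spots with no gate UMI and at most 2 UMIs of Ttr, 290 spots over the libraries, Kl still stood at 16 to 22.4 CPM, with the highest median of the 14 regions (19.7). The ranges of meninges-list spots (4.91 to 25.1) and ependymal-list spots (0 to 32.5, from 2 UMIs in 29 spots) overlapped it, and in aged vehicle meninges-list spots stood at 25.1 CPM (17 UMIs) against 17.3 CPM in CA1-list spots.

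Clic6 had a similar place in the hypothalamus. Hypothalamus-list spots gave 49, 103, 85 and 106 UMIs of Clic6 in 106, 271, 234 and 278 spots, or 20.0, 21.9, 22.4 and 24.4 CPM. Ttr in the same spots stood at 997, 16.4, 52.9 and 29.9 CPM, a 60.9-fold range beside a 1.22-fold range for Clic6. At the choroid ratio to Ttr the spots would have held 0.0675 to 4.27 CPM of Clic6, and the measured level was above this in 4 of 4 libraries. A level above the choroid ratio was not particular to the hypothalamus. Clic6 was above it in 4 of 4 libraries in unassigned spots too, and in 3 in meninges-list, CA3-list, habenula-list and striatum-list spots. Folr1 in hypothalamus-list spots stood at 0.212 to 4.90 CPM and Kcne2 at 0 to 1.23 CPM.

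In hypothalamus-list spots without Folr1 or Kcne2 UMIs and with at most 2 of Ttr, 297 UMIs of Clic6 lay in 793 spots, at 20.8 to 24.2 CPM. Striatum-list spots chosen the same way, of which aged vehicle had none, had 8.71 to 18.8 CPM, and CA1-list spots 0 to 2.41 CPM. Hypothalamus-list spots had the highest median of the 14 regions under that limit, 23.0 CPM. Striatum came next, with 1 UMI in 6 spots in young vehicle and 62 UMIs in 163 spots in young ethanol, where the interval (14.4 to 24.0) reached the hypothalamus levels. Ependymal-list spots, with 3 UMIs in 31 spots, ran from 0 to 28.5 CPM. Over all other spots the order by median was ependymal (51.8 CPM, range 21.3 to 64.8), striatum (24.6, range 14.3 to 60.2) and hypothalamus (22.1, range 20.0 to 24.4), and these 3 overlapped. Meninges and fibroblasts (9.44) came next, and dentate (1) came last.

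Enpp2 followed the white matter. Oligodendrocyte-list spots stood at 861, 816, 841 and 891 CPM, a 1.09-fold range, and ependymal-list spots at 1114, 818, 852 and 1178 CPM. Dentate-list spots had the lowest median, at 66.4 to 77.9 CPM. In 844 oligodendrocyte-list spots with no gate UMI and at most 2 of Ttr, Enpp2 stood at 707 to 834 CPM. At the choroid ratio to Ttr all oligodendrocyte-list spots would have held 31.2 to 102 CPM. Enpp2 was above that ratio in all 4 libraries in every region but striatum, where it was above it in 3. Autotaxin is known as a product of oligodendrocytes as well as of the choroid plexus.

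Folr1 and Ecrg4 were also above the choroid ratio in ependymal-list spots of all 4 libraries. Ecrg4 stood there at 145, 128, 129 and 124 CPM, against 40.1 to 77.7 CPM at the choroid ratio. Folr1 stood at 59.7, 71.1, 66.8 and 48.6 CPM, against 13.8 to 23.7. Clic6 and Kcne2 were not above it in any library, and Kl was in 1. Ttr in ependymal-list spots was 11338, 5929, 7684 and 7596 CPM. In the 29 ependymal-list spots with no gate UMI and at most 2 of Ttr, Ecrg4 gave 4, 6, 1 and 5 UMIs, at 16.2 to 93.8 CPM. For Ecrg4 the next regions by median were meninges and fibroblasts (26.1 CPM, range 22.0 to 77.1) and white matter (13.6, range 8.28 to 17.3). A level above the choroid ratio was not particular to ependymal-list spots. It was found in all 4 libraries for Folr1 in oligodendrocyte-list and unassigned spots. For Ecrg4 the same held in meninges-list, oligodendrocyte-list and dentate-list spots.

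Ttr itself moved between sections in the outer regions. Ependymal-list spots were highest by median, at 7640 CPM, followed by striatum-list spots with 3685, 673, 16014 and 731 CPM. In striatum-list spots of aged vehicle, Kl (64.0 CPM), Clic6 (60.2) and Enpp2 (880) also had their highest values of the 4 libraries. Piriform-list spots ran from 9.51 CPM (aged ethanol) to 2008 CPM (young vehicle). Hypothalamus-list spots had the lowest median, 41.4 CPM, although young vehicle stood at 997 CPM there. The position of a region beside the ventricle was not measured, and its part in these levels was not tested. The striatum list was itself higher in choroid spots than in other spots. Its part in the values of striatum-list spots, for Ttr, Kl and Clic6 alike, was not tested.

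**Figure D2:**
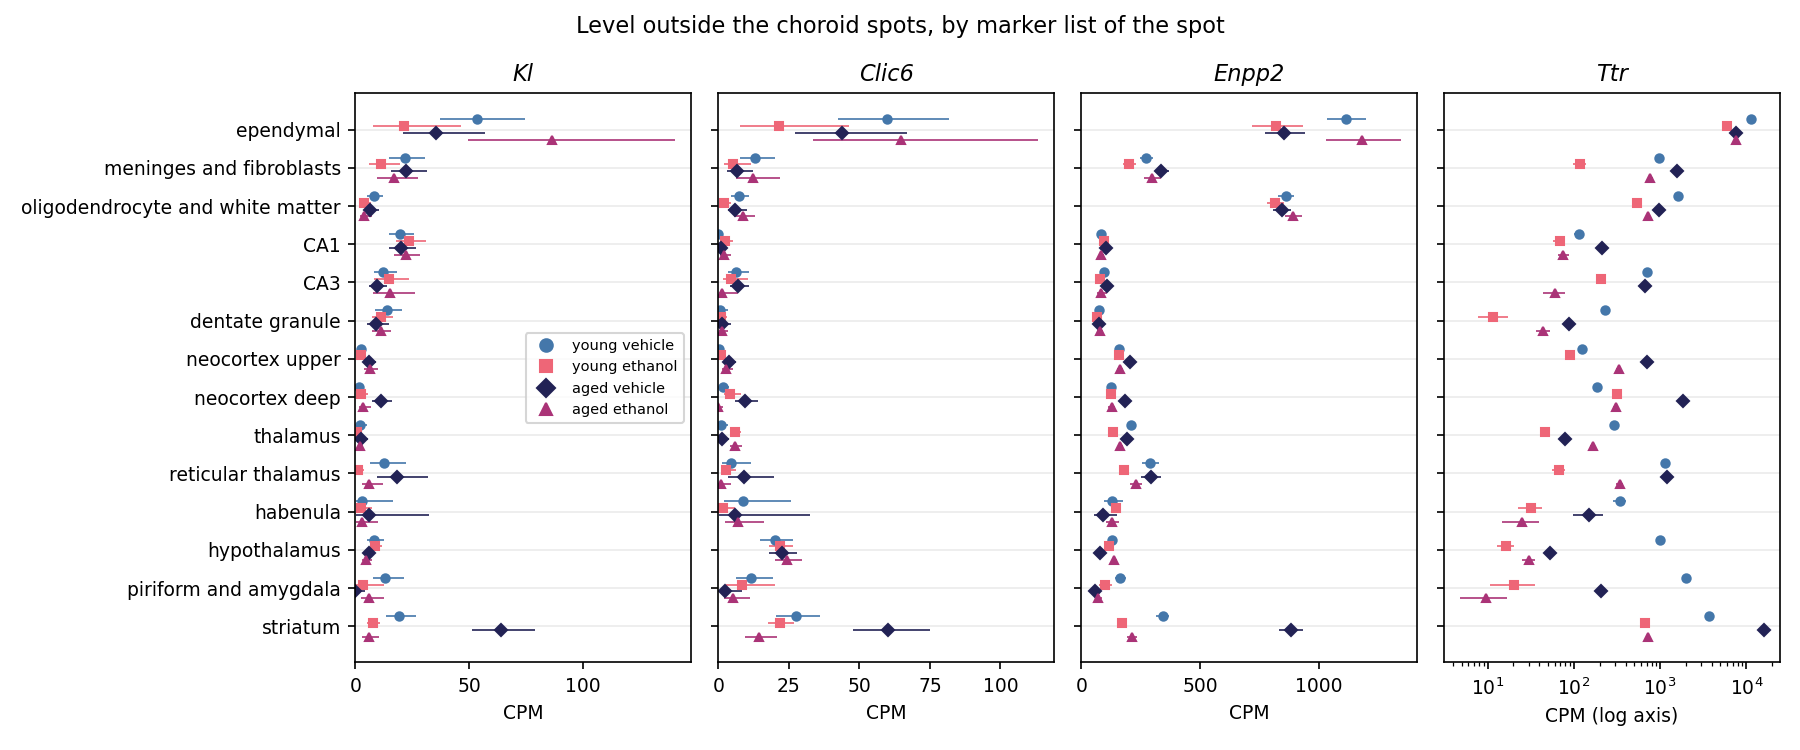
CPM of Kl, Clic6 and Enpp2 (linear axes) and of Ttr (log axis) in spots outside the choroid plexus, by the marker list they were assigned to, 1 symbol per library, with exact Poisson 95% intervals. Kl is even over libraries in CA1 (19.5 to 23.5 CPM), Clic6 in hypothalamus (20.0 to 24.4) and Enpp2 in white matter (816 to 891), while Ttr in hypothalamus spans 16.4 to 997.

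Genes with the most similar pattern over regions were found by Pearson's r of log2(CPM + 1) over 56 sums (14 regions in 4 libraries), among 14099 genes with at least 200 UMIs outside the choroid spots. These points share their libraries and their marker lists, and the values are descriptions. For Ttr the most alike were 2900040C04Rik (0.88), Folr1 (0.85), Ecrg4 (0.78), Kcnj13 (0.76) and Enpp2 (0.75). Kcne2, below that minimum and so left out of the order, had an r of 0.83 with Ttr. For Ecrg4 they were Calml4 (0.88), Col8a2 (0.85), Lbp (0.84), Gpx8 (0.84) and Msx1 (0.82). For Enpp2 they were Plaat3 (0.89), Sh3glb1, Slc12a2, Slc44a1 and Npc1 (0.87). Kl had no gene above Lbp, at 0.70, followed by Sec61b (0.69), Imp3, Meig1 and Ebpl (0.65 each), and its own r with Ttr was 0.54.

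Levels were then set side by side between libraries, with a size limit of 2-fold, for genes with 50 UMIs or more in the higher of the pair. Ratios are CPM over CPM with exact conditional binomial 95% intervals. In choroid spots of young ethanol over young vehicle, all 7 ratios were below 1 and none was past 2-fold, beside 2.00% of all genes tested past it in either direction. Kcne2 was lowest, at 0.543 (0.417 to 0.699) from 75 and 334 UMIs, and Folr1 highest, at 0.820 (0.671 to 0.996). Enpp2 was 0.671, Kl 0.695, Clic6 0.707, Ecrg4 0.724 and Ttr 0.734. Summed UMIs of the other choroid list were also lower in that library, at 0.781, and relative to the list the 7 ratios were 0.695 (Kcne2) to 1.05 (Folr1). All 7 ratios also stayed below 1 at gates of 5 and of 20 UMIs. The young ethanol choroid spots also held more ependymal (2027 against 1452 CPM) and oligodendrocyte (13110 against 9899 CPM) markers than those of young vehicle. The part of this mixture in the ratios was not tested.

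In choroid spots of aged ethanol over aged vehicle, none of the 7 was past 2-fold, beside 6.67% of all genes tested. Ecrg4 was 0.731 (0.657 to 0.812), Ttr 0.851 (0.844 to 0.859), and the other 5 lay between 0.946 and 1.07. These ratios turned with the threshold. With at least 5 gate UMIs they were 1.26 (Ecrg4) to 1.82 (Kcne2), with Ttr at 1.44, and with at least 20 they were 0.624 (Ecrg4) for the lowest and 0.724 for Ttr. No direction is therefore given for this pair of libraries.

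Aged vehicle over young vehicle gave ratios of 0.958 (Clic6) to 1.19 (Ecrg4) in choroid spots, none past 2-fold, beside 4.43% of all genes tested. With at least 5 gate UMIs all 7 lay between 0.651 and 0.847, so the age ratio also depended on the threshold. Aged ethanol over young ethanol gave 1.21 (Ecrg4) to 2.30 (Kcne2), and Kcne2 was the 1 gene past 2-fold, beside 1.02% of all genes tested that were at least 2-fold higher. Kcne2 gave 163 UMIs in 10 spots of aged ethanol and 75 UMIs in 12 spots of young ethanol, with a ratio of 2.30 (1.74 to 3.07). Relative to the other choroid list it was 1.71, and with at least 20 gate UMIs it was only just under 2-fold. The count past 2-fold was thus 0 under both, although the difference at 20 gate UMIs stayed close to the limit. No share of all genes was worked out for these settings.

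In other spots the ethanol sections had lower levels of 4 of the 7 genes at both ages, past 2-fold. The share of all genes tested that were at least 2-fold lower was 0.657% for the young and 0.768% for the aged pair. Ttr was at 0.218 (0.213 to 0.222) of the vehicle level in young and at 0.178 (0.175 to 0.182) in aged sections. Folr1 was at 0.236 (0.18 to 0.305) and 0.181 (0.139 to 0.233), and Kcne2 at 0.256 (0.143 to 0.438) and 0.233 (0.135 to 0.384). Ecrg4 was at 0.427 (0.360 to 0.504) and 0.391 (0.332 to 0.460). Kl, at 0.650 (0.559 to 0.755) and 0.581 (0.5 to 0.674), did not pass 2-fold. Clic6, at 0.930 (0.798 to 1.08) and 0.694 (0.598 to 0.805), and Enpp2, at 0.816 and 0.824, did not either.

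The median log2 ratio of the 7 genes in other spots was -1.23 in the young and -1.35 in the aged pair, against 0.00 and -0.07 over all genes tested. The ethanol sections had 12 and 10 choroid spots against 26 and 29, and the part of that difference in these ratios was not tested. In spots with no gate UMI, Ttr was at 0.285 and 0.348 of the vehicle level and Ecrg4 at 0.556 and 0.610. Kl was there at 0.814 and 0.757, and Enpp2 at 0.915 and 0.960. Of these 4 genes Ttr alone was past 2-fold in such spots, at both ages. The share of all genes past 2-fold in such spots was not worked out, so nothing is read from that count.

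The ages differed less in other spots. Aged vehicle over young vehicle gave ratios of 1.06 to 1.54 for the 7 genes, none past 2-fold, beside 0.380% of all genes tested in either direction. Aged ethanol over young ethanol gave 1.07 to 1.24 for the 6 genes tested, none past 2-fold, beside 0.501%. Kcne2 had too few UMIs for that last pair. Comparisons that share a library are not independent of one another.

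**Figure D3:**
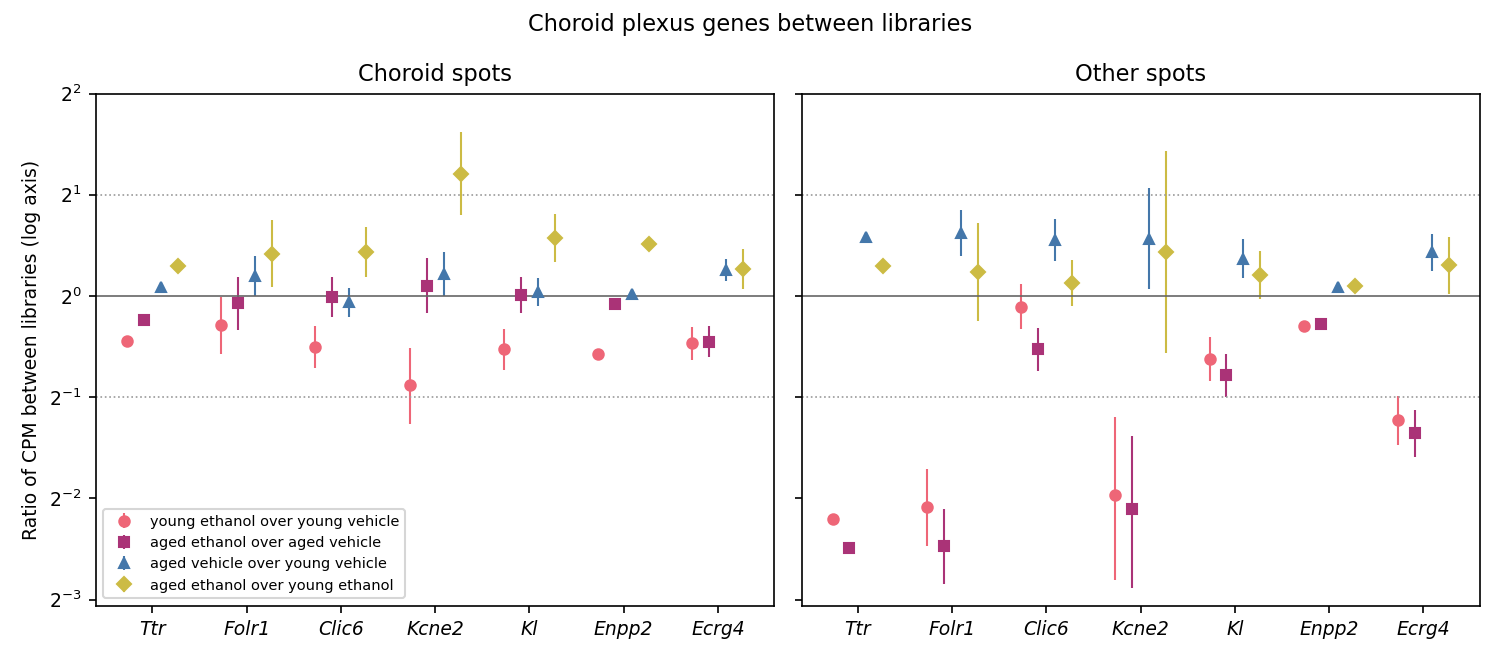
Ratio of CPM between 2 libraries (log axis) for each gene in choroid spots (left) and other spots (right), 1 symbol per pair, with exact conditional binomial 95% intervals; dotted lines mark 2-fold. In other spots, Ttr, Folr1, Kcne2 and Ecrg4 lie below 2-fold in both ethanol pairs (0.178 to 0.427), while Clic6, Kl and Enpp2 lie between 0.581 and 0.930.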

How the data were processed

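The authors deposited 1 matrix of UMI counts for the 4 libraries, with lists of barcodes and genes, and the counts were used as deposited. The matrix names Space Ranger 1.3.1, per the file headers, whereas per the submitters' processing notes Space Ranger 2.0.0 and mm10 were used; which version made the counts is not given in the sources used here. The deposited barcode and gene lists (other) tied each spot to a library by the suffix named in the sample descriptions. Whether spots were limited to tissue is not given in the sources used here.

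Spots under 500 UMIs were left out (27, 8, 81 and 6), and 10942 of 11064 were kept. No doublet caller was run. UMIs were summed over spots per library and scaled to CPM with Python 3.11.15, numpy 2.4.6, scipy 1.17.1 and pandas 2.3.3. Counts under 3 UMIs, among them 0, were raised to 3 in ratios, and a 0 in choroid spots was never taken as higher. Sums carry exact Poisson, shares exact Clopper-Pearson and ratios exact conditional binomial 95% intervals. Regions were the marker list with the highest mean z-score, at least 0.8 and 0.3 above the next; 1820 unassigned spots lay near these limits. Scripts were tested on simulated data. With 1 library in each group no model was fitted.

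The 7 genes, the gene lists and the marker lists were chosen with earlier results of these data known. Named genes were the 7, the 10 others with the highest lowest-library ratio of choroid over other spots, the 5 most alike over regions for Ttr, Kl, Enpp2 and Ecrg4, and list genes on which a count turned; Kcnj13, Otx2, Sostdc1, Prlr and Igf2 were named as examples after their values were seen. Sequences and positions are from RefSeq. Thresholds for the gate, the scaling, the minimum depth, the region margin and each library left out were varied.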

Additional observations from a re-analysis of the deposited data

How the results depend on the processing

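No paired analysis was possible because each group has 1 library. The gate set the number of choroid spots, 77 at 10 UMIs and 133 at 5. The share of Ttr in choroid spots, 81.7% as a median over libraries, was 75.0% at a gate of 20 UMIs. A gate of 10 UMIs of the other choroid list took in 9670 of 10942 spots, because Atp1b1 alone had a median of 23 UMIs per spot; under it the Ttr share was 99.6%, Kl inside was 6.50 per 1000 Ttr UMIs instead of 4.5, the genes at least 2-fold higher in each library numbered 1 instead of 7, and the log2 ratio of Enpp2 turned to -0.70. A gate on 5 choroid markers outside the 7 genes, added after seeing the data, took 66 spots, 65 of them choroid spots, and all 7 genes stayed at least 2-fold higher. For aged over young ethanol in choroid spots, genes past 2-fold numbered 0 instead of 1 at a gate of 20 UMIs and when scaled to the other choroid list. At the gate of 20 UMIs Kcne2 lay only just under the limit. For ethanol over vehicle in other spots they numbered 1 instead of 4 at both ages in spots with no gate UMI, where the 3 gate genes drop out by construction. Shares of all genes were worked out only for the gate of 10 UMIs, in choroid spots and in all other spots. Counts of the 7 genes under other settings stand without such a share, and nothing is read from them.

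Kl in CA1-list spots, 21.1 CPM as a median, was 13.4 when spots took the highest score without the margin and 24.3 with mitochondrial genes left out of the total. The highest score had been listed as the first choice; the margin was put first after the numbers of spots per region were seen. Without the margin CA1 ranked 3 for Kl and hypothalamus 2 for Clic6.

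Leaving out each library in turn gave 7 to 7 genes at least 2-fold higher, a Ttr share of 80.1% to 83.4%, Kl in CA1-list spots of 20.0 to 22.1 CPM, and Kl per 1000 Ttr UMIs of 4.43 to 4.57 inside and 8.56 to 24.1 outside. Keeping all spots, or only those of at least 2000 UMIs, moved none of the 96 results by more than the spread between libraries. What 1 library of each kind cannot give is the spread between animals.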

Other observations

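Cox8b encodes a heart and muscle form of a cytochrome c oxidase subunit. Of 39 genes tested on the other choroid list, it alone was past 2-fold between ethanol and vehicle in choroid spots, at both ages. It stood there at 252 and 564 CPM in the young and 257 and 827 CPM in the aged vehicle and ethanol sections, from 238, 220, 227 and 305 UMIs. Both ethanol sections were above both vehicle sections. The ratio was 2.23 (1.85 to 2.70) in the young and 3.21 (2.70 to 3.83) in the aged pair. In other spots the ratios were 0.980 and 1.02. Cox8b was picked after its values were seen. In choroid spots 2.00% of all genes tested were past 2-fold in the young pair and 6.67% in the aged pair, in either direction. Gavage and plane of section cannot be told apart here either.

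In aged ethanol 1 spot outside the choroid spots held 29 UMIs of Ecrg4, while the highest such spot held 12 in young vehicle, 8 in young ethanol and 11 in aged vehicle. Ecrg4 in meninges-list spots of that section stood at 77.1 CPM, against 29.8, 22.0 and 22.4 CPM in the others.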
